A study of Mus musculus with 14 samples.

Results

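The genes described here encode the proteins that first carry an activating signal from the B cell antigen receptor: Cd79a and Cd79b, the tyrosine kinase genes Syk, Lyn and Btk, the adaptor gene Blnk, and the effector genes Plcg2, Vav1 and Pik3cd. They were chosen by name, as all probe sets annotated to 1 of these 9 genes and to no other gene. This gave 17 of the 45101 probe sets on the array, for 8 of the 9 genes. Lyn had no probe set named for it alone in the annotation used here, so no value is given for it. Of the 17 probe sets, 15 had a mean above the median probe set of the array (a log2 intensity of 6.43), and so did the brightest probe set of all 8 genes, which stands for the gene below.

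RNA was measured in germinal centre B cells sorted from single spleens of Crebbp mutant mice, with 1 Affymetrix Mouse Genome 430 2.0 array for each of 14 mice. KO mice were Crebbp fl/fl Cg1-Cre (n = 5, 3 of them male), HET mice Crebbp fl/+ Cg1-Cre (n = 5, 2 male) and WT mice Crebbp+/+ Cg1-Cre (n = 4, 1 male). All groups carried the Cre transgene, which acts in B cells once they are activated. All mice were 8 to 12 weeks old, of the C57BL/6x129Sv background, received sheep red blood cells on day 0 and day 5 and were killed on day 12. Crebbp encodes a lysine acetyltransferase and transcriptional coactivator, and the design asks what the loss of 1 or both copies does to transcription in these cells. The number of arrays limits the precision.

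The antigen receptor of a B cell is a membrane immunoglobulin held by a heterodimer of CD79A and CD79B, whose cytoplasmic tails carry the tyrosine motifs that start the signal. LYN phosphorylates these motifs, SYK binds to them and phosphorylates the adaptor BLNK, and BLNK brings BTK and the phospholipase PLCG2 together at the membrane. VAV1 activates Rac GTPases, and PIK3CD, the delta catalytic subunit of phosphoinositide 3-kinase, makes the lipid to which BTK binds. Germinal centre B cells are known for antigen receptor signalling that is restrained compared with that of naive B cells, and they use the receptor in the light zone to take up antigen and compete for T cell help.

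The labels were checked on Crebbp and on markers of the sorted cells. On the Crebbp probe set with the largest difference, 1436983_at, log2 intensities were 9.29 to 9.56 in KO, 9.81 to 10.20 in HET and 10.19 to 10.36 in WT, and the KO change was -0.86 (SE 0.10, limma adjusted p = 0.00168 over 45037 probe sets). The other 3 Crebbp probe sets had smaller differences that did not pass: the brightest, 1435224_at, had -0.41 (adjusted p = 0.136), 1434633_at had -0.47 (adjusted p = 0.0954) and 1459804_at, on which KO and WT overlapped, had -0.30 (adjusted p = 0.703). All 8 measured germinal centre B cell markers (Ms4a1, Ptprc, Fas, Bcl6, Gcsam, S1pr2, Mybl1 and Mef2b, of 10 listed) were above the median probe set. KO 3 stood furthest from the rest, with a median Pearson r of 0.979 against the remaining arrays over the tested genes. The array of WT 4, the only male WT mouse, was the highest of the 14 in the mean of the signalling genes, so results are also given without these 2 arrays.

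The sequences upstream of 3 of the genes show where the mouse genome places the regulatory letters discussed here, for the gene with separated arrays (Cd79a) and for 2 genes with overlapping arrays (Blnk and Vav1). Each line gives the 250 bases before the start site in RefSeq, build GRCm38.p6, read 5′ to 3′ on the strand of the gene, at chr7:24897247-24897496 (plus strand) for Cd79a, chr19:40994222-40994471 (minus strand) for Blnk and chr17:57278850-57279099 (plus strand) for Vav1. Capitals mark a PU box, the core letters bound by PU.1, in Cd79a and Vav1, and an octamer, the letters bound by OCT factors, in Blnk; those of Cd79a and Blnk lie on the opposite strand and are printed as their reverse complement.
Cd79a: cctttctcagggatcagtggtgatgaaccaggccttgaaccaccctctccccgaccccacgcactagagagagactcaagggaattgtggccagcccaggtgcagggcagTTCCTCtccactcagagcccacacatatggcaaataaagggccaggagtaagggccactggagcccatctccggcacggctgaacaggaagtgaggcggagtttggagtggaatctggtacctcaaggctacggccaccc
Blnk: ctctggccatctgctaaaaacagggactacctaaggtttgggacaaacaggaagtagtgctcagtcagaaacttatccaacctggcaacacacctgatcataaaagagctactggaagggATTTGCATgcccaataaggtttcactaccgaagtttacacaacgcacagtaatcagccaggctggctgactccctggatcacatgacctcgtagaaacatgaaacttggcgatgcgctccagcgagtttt
Vav1: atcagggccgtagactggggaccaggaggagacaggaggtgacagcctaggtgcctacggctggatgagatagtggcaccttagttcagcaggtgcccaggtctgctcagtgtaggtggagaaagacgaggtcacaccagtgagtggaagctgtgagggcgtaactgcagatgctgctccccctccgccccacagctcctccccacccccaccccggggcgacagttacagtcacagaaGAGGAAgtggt

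The search covered 10 promoters of 7 of the genes, with no promoter for Lyn or Cd79b in the table, and read both strands; of the motifs, the first below contains the second. The cAMP response element TGACGTCA, the site of CREB, was in 0 of the 10, against 1.55% of all 32851 promoters of the same length, and its shorter core TGACG in 0 of the 10, against 17.8% of all. The EBF1 letters, TCCC and GGGA with any 2 bases between, were in 0, against 0.779% of all. The octamer ATGCAAAT was in 1, that of Blnk, against 1.6% of all, and the PU box GAGGAA in 3, those of Cd79a, Vav1 and 1 of the 2 Syk start sites, against 23.3% of all. Only exact matches to the letters were counted. Sites that differ in any letter were missed, so a count of 0 does not show that a promoter lacks a site for the factor. These matches describe the letters of the windows only.

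All 8 tested signalling genes had lower means in KO than in WT cells, but none passed the test over all genes. The fitted changes ran from -0.22 log2 units for Pik3cd to -0.04 for Cd79b, with a median of -0.14, against a median of 0.00 over all 10225 genes tested. Limma's test, with sex as a covariate and Benjamini-Hochberg adjustment over the 10225 genes, called 0 of the 8 at an adjusted p under 0.05, where it called 2.44% of all genes. At an unadjusted p under 0.05, 3 of the 8 (Cd79a, Syk and Pik3cd) were lower, where 6.94% of all genes were lower. A negative change was found for 51% of all genes, and most pairs of the 8 genes are positively correlated across the arrays, so their shared sign is not 8 separate observations. In bulk RNA, fewer cells with a high level and less RNA per cell cannot be told apart.

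**Figure D1:**
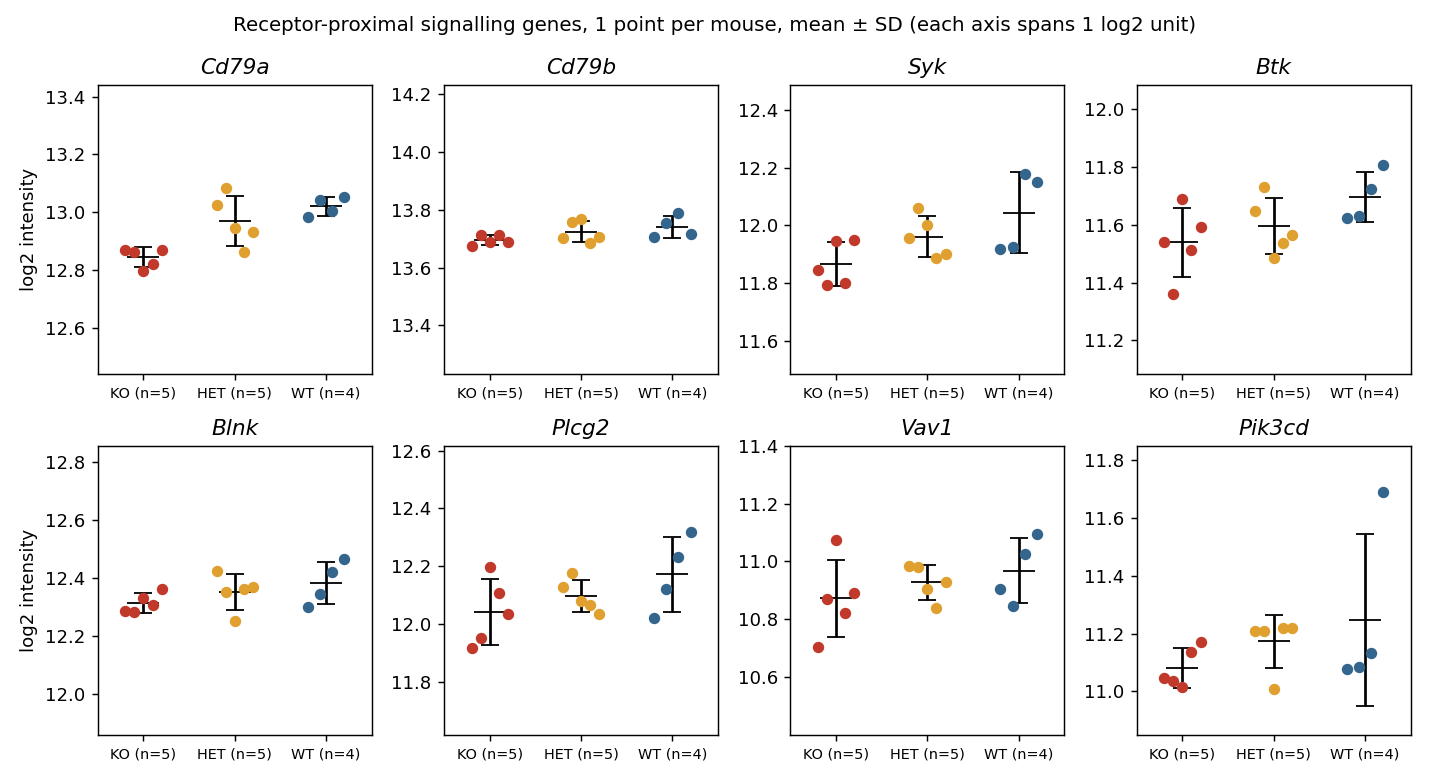
Log2 intensity (vertical axis) of the brightest probe set of each of the 8 genes, 1 point per mouse, with KO, HET and WT from left to right and the mean ± SD as bars. The KO points of Cd79a, 12.80 to 12.87, all lie below its WT points, 12.98 to 13.05, while the KO and WT points of the other 7 genes overlap.

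Cd79a, the immunoglobulin alpha chain of the receptor complex, lies on chromosome 7 from 24897497 to 24901858 in GRCm38.p6. Its log2 intensity was 12.87, 12.86, 12.80, 12.82 and 12.87 in KO 1 to KO 5, 13.02, 13.08, 12.95, 12.86 and 12.93 in HET 1 to HET 5, and 12.98, 13.04, 13.005 and 13.05 in WT 1 to WT 4. All 5 KO values were lower than all 4 WT values, which was so for 3.65% of all genes tested, while the HET arrays reached from the KO range to above the WT range. The mean was 12.84 ± 0.03 (SD, n = 5) in KO, 12.97 ± 0.09 (SD, n = 5) in HET and 13.02 ± 0.03 (SD, n = 4) in WT. The KO change was -0.18 (SE 0.06, 95% interval -0.31 to -0.06), or 88.1% of the WT level, and its adjusted p in limma was 0.144. With limma's trend and robust options, which let the prior spread follow the mean intensity and down-weight outlying genes, the adjusted p was 0.0368, and Cd79a was then the only called gene of the 8. The value was -0.17 without WT 4, -0.17 without KO 3 and -0.15 without both.

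Cd79b, the immunoglobulin beta chain that pairs with CD79A (chromosome 11, 106311341 to 106314562), differed little between groups. Its log2 intensity was 13.67, 13.71, 13.69, 13.71 and 13.69 in KO, 13.70, 13.76, 13.77, 13.68 and 13.71 in HET and 13.71, 13.75, 13.79 and 13.72 in WT. The groups overlapped, and the KO change was -0.04 (SE 0.05, 95% interval -0.14 to 0.07, adjusted p = 0.875). A change in measured log2 intensity larger than 0.14 in size lies outside that interval. The probe set stood at percentile 99.67 of all probe sets, and how its intensity follows the RNA amount at that level was not tested. Each of the 2 chains was read by 1 probe set.

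Syk, the kinase that binds the phosphorylated receptor tails (chromosome 13, 52582610 to 52648792), had 11.85, 11.79, 11.95, 11.80 and 11.95 in KO cells, 11.95, 12.06, 12.00, 11.89 and 11.90 in HET cells and 11.92, 11.93, 12.18 and 12.15 in WT cells. WT 3 and WT 4 were above every KO array, while WT 1 and WT 2 lay within the KO range. The KO change was -0.18 (SE 0.08, unadjusted p = 0.036 in limma, adjusted p = 0.331), and -0.12 without WT 4. The other 3 Syk probe sets also had negative KO changes, of -0.13, -0.25 and -0.34, with adjusted p from 0.657 to 0.956 over all probe sets. The probe set 1418262_at followed the brightest one across the 14 arrays with a Pearson r of 0.79, and the dimmer ones with 0.45 and 0.22.

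Btk, the Tec family kinase that activates PLCG2 and is encoded on the X chromosome (134542334 to 134583628), had 11.54, 11.36, 11.69, 11.51 and 11.59 in KO, 11.65, 11.73, 11.49, 11.54 and 11.57 in HET and 11.62, 11.63, 11.72 and 11.81 in WT. All KO arrays except KO 3 lay below the lowest WT array. The KO change was -0.16 (SE 0.08, adjusted p = 0.443), -0.21 without KO 3 and -0.09 without WT 4. Blnk, the adaptor also called SLP-65 (chromosome 19, 40928927 to 40994221), had 12.29, 12.28, 12.33, 12.31 and 12.36 in KO, 12.42, 12.35, 12.25, 12.36 and 12.37 in HET and 12.30, 12.34, 12.42 and 12.46 in WT. The Blnk groups overlapped, with a KO change of -0.09 (SE 0.06, 95% interval -0.21 to 0.03, adjusted p = 0.597).

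Plcg2, the phospholipase that makes the second messengers for calcium release (chromosome 8, 117498275 to 117635142), had 11.92, 11.95, 12.20, 12.11 and 12.04 in KO, 12.13, 12.18, 12.08, 12.07 and 12.03 in HET and 12.02, 12.12, 12.23 and 12.32 in WT. KO 3, KO 4 and KO 5 lay within the WT range. Its KO change was -0.12 (SE 0.08, adjusted p = 0.584), and -0.03 without WT 4. Vav1, the exchange factor for Rac (chromosome 17, 57279100 to 57329236), had 10.71, 10.87, 11.07, 10.82 and 10.89 in KO, 10.99, 10.98, 10.90, 10.84 and 10.93 in HET and 10.90, 10.85, 11.02 and 11.09 in WT. Here KO 3 was higher than 3 of the 4 WT arrays. The KO change was -0.09 (SE 0.08, adjusted p = 0.76), -0.16 without KO 3 and -0.01 without WT 4. The second Vav1 probe set, 1440300_at, had 8.80 to 9.27 in KO and 9.24 to 9.37 in WT and a KO change of -0.25 (SE 0.10, adjusted p = 0.653 over all probe sets).

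Pik3cd (chromosome 4, 149649168 to 149702566) had the largest fitted change of the 8 genes, and 1 array carried most of it. Its log2 intensity was 11.04, 11.04, 11.02, 11.14 and 11.17 in KO, 11.21, 11.21, 11.01, 11.22 and 11.22 in HET and 11.08, 11.08, 11.13 and 11.69 in WT. WT 4 stood above all other arrays, and WT 1 to WT 3 lay within the KO range. The KO change was -0.22 (SE 0.10, adjusted p = 0.372) with all arrays, and -0.04 (adjusted p = 0.884) without WT 4. Of its 6 probe sets, 2 were below the median probe set. The dimmer 1422991_at and 1422992_s_at had KO changes of -0.25 and -0.26, with adjusted p of 0.919 and 0.96, and WT 4 was the highest WT array on both. The probe set 1446770_at, with 7.60 to 8.25 in KO and 7.87 to 8.17 in WT, had a change of 0.00 (SE 0.14) and a Pearson r of 0.02 with the brightest one over the 14 arrays.

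**Figure D2:**
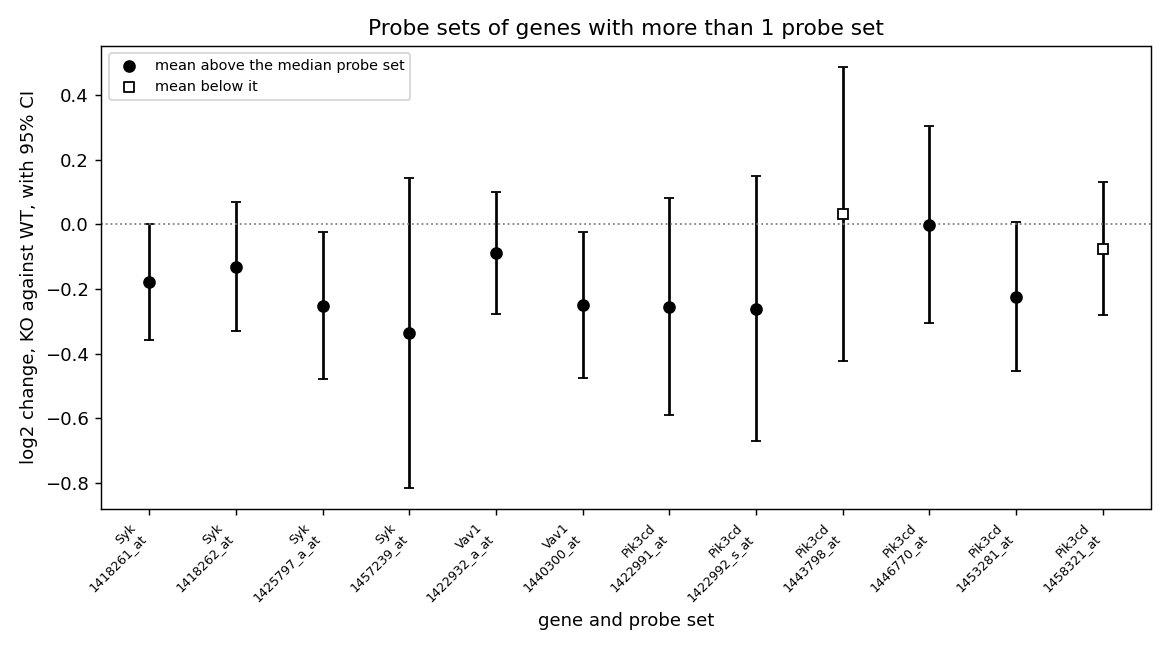
Log2 change in KO against WT (vertical axis, with 95% confidence interval) for each probe set of Syk, Vav1 and Pik3cd, the genes with more than 1 probe set. Filled points are probe sets above the median probe set and open squares those below it. The changes run from -0.34 for a Syk probe set to 0.03 for a dim Pik3cd probe set.

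Over all 17 probe sets, 16 had a negative KO change, against 49.5% of all probe sets, and so did all 15 above the median probe set, against 50.5% of all such probe sets. Limma called 0 of the 17 in the fit over 45037 probe sets, where it called 0.315% of all probe sets, and the smallest adjusted p was 0.498, that of Cd79a. At an unadjusted p under 0.05, 3 of the 17 (Cd79a, Syk 1425797_a_at and Vav1 1440300_at) were lower, where 3.34% of all probe sets were. Probe sets of 1 gene were read on the same RNA samples and are not separate replicates.

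HET cells, compared with WT cells, had lower means for all 8 genes, where 49.3% of all genes had a negative change, with none called. The changes ran from -0.10 for Btk (SE 0.08, 95% interval -0.27 to 0.06) to -0.01 for Cd79b (SE 0.05), with a median of -0.06, against 0.00 over all genes. Cd79a changed by -0.05 (SE 0.06, 95% interval -0.18 to 0.07), Syk by -0.08 (SE 0.07) and Pik3cd by -0.10 (SE 0.10). The HET and WT arrays of all 8 genes overlapped, where 1.5% of all genes had no overlap. Limma called 0 of the 8, with adjusted p = 1.00 for each and 0 at an unadjusted p under 0.05, where it called 0% of all genes at the adjusted threshold and 2.74% at the unadjusted one. The same WT arrays serve both this and the KO comparison. Without WT 4 the HET changes of Plcg2, Vav1 and Pik3cd turned to 0.01, 0.03 and 0.06.

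**Figure D3:**
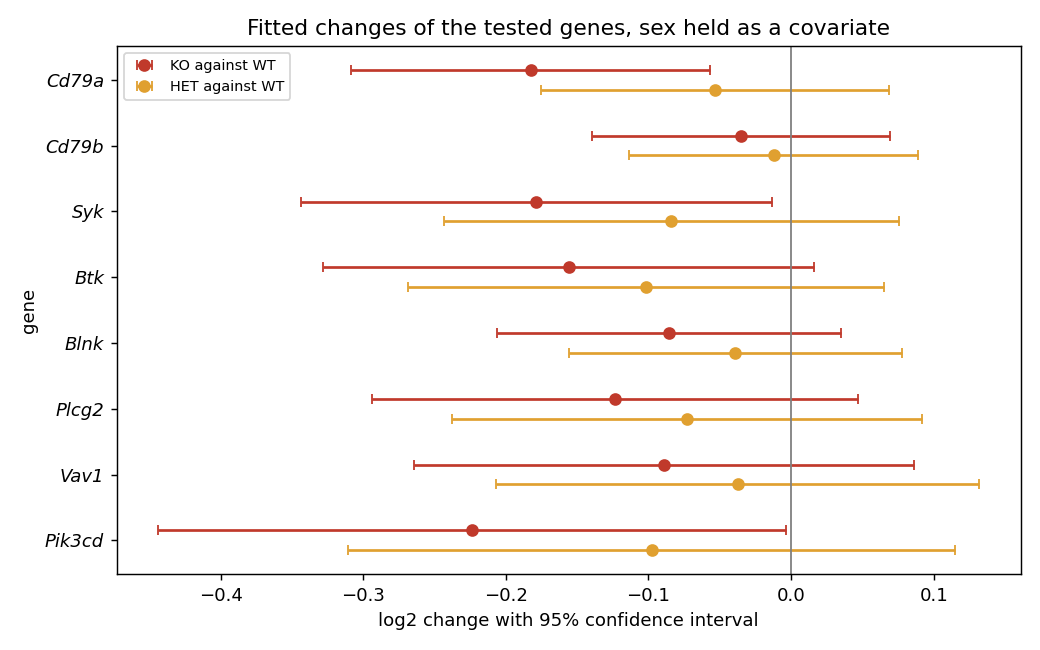
Fitted log2 changes (horizontal axis) with 95% confidence intervals for the 8 genes (vertical axis), KO against WT above HET against WT for each gene. The KO intervals of Cd79a, Syk and Pik3cd lie below 0, while every HET interval spans 0.

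The second allele was examined by setting KO against HET cells. All 8 changes were negative, as were 52.7% of all genes, from -0.13 for Cd79a to -0.02 for Cd79b, with a median of -0.05, against -0.01 over all genes. Cd79a had -0.13 (SE 0.05, 95% interval -0.24 to -0.01, adjusted p = 0.675) and was the only 1 of the 8 at an unadjusted p under 0.05, where 6.39% of all genes were. Limma called 0 of the 8, where it called 0.264% of all genes, and the KO and HET arrays of all 8 genes overlapped, where 1.43% of all genes had no overlap. In the order of the group means all 8 genes had KO below HET below WT, an order that 29.1% of all genes had. The comparisons share arrays, so these orders are not independent of one another. A fit on the number of floxed alleles called 0 of the 8, where it called 3.04% of all genes, with the smallest adjusted p for Cd79a at 0.108 (-0.09 per allele, SE 0.03).

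Of the 28 pairs among the 8 genes, 27 had a positive Pearson r over the 14 arrays, with a median of 0.60. After the group and sex terms were removed, 25 were positive and the median was 0.48. The 15 pairs without a receptor chain then had 0.41 to 0.80, with 0.80 for Plcg2 with Vav1, 0.75 for Btk with Plcg2 and 0.71 for Syk with Btk. The 13 pairs with Cd79a or Cd79b had -0.14 to 0.46, with 0.45 between the chains themselves and the lowest value for Cd79b with Btk. All pairs share the arrays and their normalisation. Pairs among other genes were not summarised, so these values do not show a pattern particular to the 8 genes.

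The mean log2 intensity over the 8 genes was 11.98 to 12.09 in KO, 12.06 to 12.17 in HET and 12.07 to 12.29 in WT arrays. KO 1 was below the WT range for 8 of the 8 genes, KO 2 for 6, KO 4 for 4, and KO 3 and KO 5 for 3 each. The HET arrays were below it for 0 to 5 genes. The share of all genes below the WT range was not counted for each array. As the 8 genes are correlated, these counts are not separate observations and do not show a drop particular to them. The median KO change of the 8 genes was -0.14 with all arrays, -0.05 without WT 4, -0.17 without KO 3, -0.09 without both and -0.04 in females alone. The fit on females alone held only 2 KO arrays, KO 3 and KO 4, and 3 WT arrays, so KO 3 weighs heavily in it. In that fit the changes of Plcg2 and Vav1 were 0.03 and 0.02, and that of Cd79a was -0.20 (limma adjusted p = 0.314). Since WT 4 is the only male WT mouse, that array and the male sex cannot be told apart within the WT group.

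**Figure D4:**
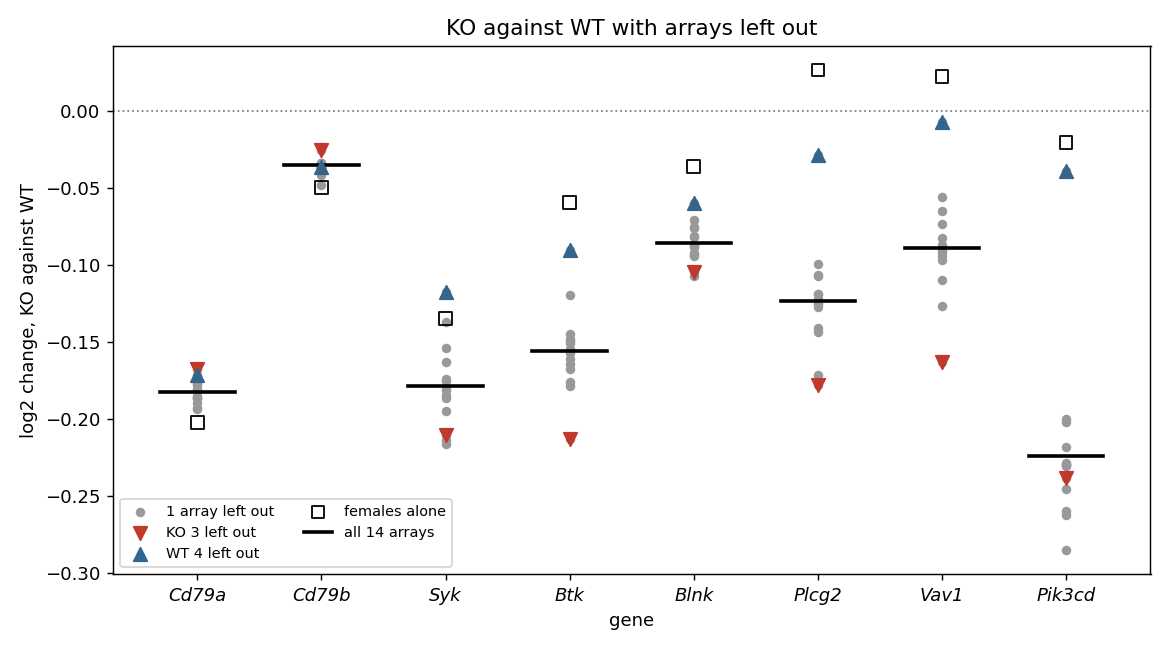
Log2 change in KO against WT (vertical axis) for each of the 8 genes, with all 14 arrays (line), with each array left out in turn (grey), without WT 4 (blue triangle), without KO 3 (red triangle) and in females alone (open square). Cd79a stays between -0.20 and -0.17 in these fits, while Pik3cd is -0.04 without WT 4 and -0.22 with all arrays.

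Genes whose pattern over the 14 arrays was most like the mean of the standardised values of the 8 genes were Ctdp1, a phosphatase of RNA polymerase II (Pearson r = 0.95), Sipa1, a GTPase activating protein of Rap1 (0.94), Dok1, an inhibitory adaptor of B cell and other kinases (0.94), Map3k14, the kinase NIK of the alternative NF-kB pathway (0.94), and Dgkd, a diacylglycerol kinase (0.94). Their KO changes were -0.32, -0.21, -0.32, -0.27 and -0.17, and 0 of these 5 were called. After group and sex were removed the r values were 0.90 to 0.94.

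In each of 4 further lists of pathway genes, 1 gene was called. The 3 genes named from each had its smallest p in KO against WT, so separated KO and WT arrays follow largely from that choice. All KO arrays were below all WT arrays for 3.65% of all genes tested, and KO and HET arrays did not overlap for 1.43%. Of the coreceptor and neighbouring kinase genes, 7 of 9 were tested, all 7 had negative KO changes with a median of -0.19, and 1 was called. This was Fyn, a Src family kinase related to Lyn, with 10.30 to 10.77 in KO, 10.88 to 11.17 in HET and 10.94 to 11.37 in WT. No KO value of Fyn reached a HET or WT value. Fyn changed by -0.56 (SE 0.12, limma adjusted p = 0.0271), but the call was lost without WT 1, WT 2, WT 3 or KO 4, with adjusted p from 0.0514 to 0.0831. It was also lost in females alone (adjusted p = 0.0543) and with only KO and WT in the fit (adjusted p = 0.108). The Fyn call was kept without KO 3 and WT 4 together (-0.50, adjusted p = 0.024). The mean over the Fyn probe sets had -0.60 (adjusted p = 0.000555). Blk, the Src kinase of B cells, had -0.24 (SE 0.11, adjusted p = 0.339), and Tec had -0.16 (SE 0.07, adjusted p = 0.358).

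Among adaptors, exchange factors and other lipid enzymes of the pathway, 18 of 21 genes were tested, 11 had negative KO changes, the median was -0.10 and 1 gene was called. Hcls1, the actin-binding cortactin relative that SYK and LYN phosphorylate, had 10.68 to 10.90 in KO, 10.87 to 11.26 in HET and 11.13 to 11.27 in WT. Its KO change was -0.34 (SE 0.07, adjusted p = 0.0254), and it stayed called in 9 of 14 fits with an array removed, not without WT 1, WT 3, WT 4, KO 2 or KO 4 (adjusted p from 0.0523 to 0.103). The Hcls1 call was also lost without KO 3 and WT 4 together (adjusted p = 0.159), in females alone (0.149), with no filter (0.0535) and with only KO and WT in the fit (0.0502). Sh3bp2, an adaptor that binds SYK, had -0.44 (SE 0.11, adjusted p = 0.055), and Pik3ap1, the adaptor BCAP, had -0.19 (SE 0.07, adjusted p = 0.234). Sh3bp2 passed without KO 3 (adjusted p = 0.0117), without HET 4 (0.0455), with array weights (0.0108), without the sex term (0.0367), with arrays centred on the median (0.0479) and with quantile normalisation repeated (0.0491).

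Of the downstream effectors, 28 of 36 genes were tested, 23 had negative KO changes with a median of -0.04, and 1 was called. Nfatc2, a transcription factor that calcium and calcineurin activate, had 10.38 to 10.52 in KO, 10.64 to 10.82 in HET and 10.74 to 10.89 in WT. Its KO values did not overlap with those of HET or WT cells. Nfatc2 changed by -0.39 (SE 0.06, adjusted p = 0.00445) and stayed called whichever array was left out (14 of 14), but the mean over its probe sets had -0.17 (adjusted p = 0.232), and females alone gave an adjusted p of 0.0547. Map2k1, the kinase MEK1, had -0.25 (SE 0.09, adjusted p = 0.176) and Prkcd, a protein kinase C gene, had -0.30 (SE 0.13, adjusted p = 0.341). Without KO 3 and WT 4 together, Map2k1 had -0.12 (adjusted p = 0.61) and Prkcd -0.016 (adjusted p = 0.972). Nfatc2 then had -0.42 (adjusted p = 0.0403).

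Of the negative regulators of the receptor, 20 of 25 genes were tested, 16 had negative KO changes with a median of -0.11, and 1 was called, with the opposite sign. Inppl1, the lipid phosphatase SHIP2, had 7.82 to 8.49 in KO, 7.26 to 7.75 in HET and 7.11 to 7.38 in WT. Its KO values were higher than all HET and WT values. Inppl1 rose by 0.89 (SE 0.13, adjusted p = 0.00387) and stayed called whichever array was left out (14 of 14), with a HET value of 0.27. Dok1 had -0.32 (SE 0.09, adjusted p = 0.106) and Cd22, an inhibitory receptor, had -0.19 (SE 0.07, adjusted p = 0.216). The 4 lists held 1, 1, 1 and 1 called genes among 7, 18, 28 and 20 tested, beside the 2.44% of all genes, and were chosen with earlier results known.

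Several of the 8 genes are also used by other blood cells, Syk, Btk and Plcg2 by myeloid cells and Vav1 and Pik3cd by T cells, so markers of other cells were read. Of the T cell list, 8 of 10 genes had a named probe set and 3 of these (Cd3e, Cd8a and Lat) were above the median probe set. Of these 3, Lat, an adaptor of the T cell receptor, fell in KO cells by 0.47 on the log2 scale (SE 0.10, limma adjusted p = 0.0254), while Cd3e and Cd8a had -0.05 and 0.04. The summed intensity of all 8 T cell genes with a named probe set was 498 to 849 in KO, 543 to 749 in HET and 646 to 723 in WT. Of the macrophage and monocyte list, 3 of 10 (C1qb, Cd68 and Lyz2) were above the median probe set, with Csf1r, Adgre1 and Itgam below. The sum over all 10 was 927 to 2150 in KO, 871 to 2463 in HET and 896 to 1771 in WT. The sums of both lists overlapped between the groups.

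Dendritic cell markers, with 3 of 6 measured genes above the median probe set, summed to 1194 to 1744 in KO, 1565 to 1881 in HET and 1744 to 1940 in WT. Here the KO sums did not exceed the lowest WT sum, and 0 genes of the list were called. Flt3 was the brightest of the list, and Itgax, Batf3 and Xcr1 were below the median probe set. Plasma cell markers summed to 13278 to 15524 in KO, 14251 to 14974 in HET and 15112 to 15735 in WT, and 1 of the 5 tested genes was called. This was Sdc1, the plasma cell surface proteoglycan, which rose by 0.81 (SE 0.19, limma adjusted p = 0.0404). The other 4 tested genes (Irf4, Jchain, Prdm1 and Xbp1) had negative KO changes, down to -0.30, and the median of the 5 was -0.15. Neutrophil sums were 263 to 1299 in KO, 245 to 1642 in HET and 253 to 1651 in WT. Of the 4 measured NK cell genes, 0 had a mean above the median probe set. Their sums still differed widely between arrays of each group, 69 to 1001 in KO, 77 to 520 in HET and 78 to 930 in WT. Of the 4 measured erythroid and platelet genes, 0 were above the median probe set, with sums of 140 to 208 in KO, 129 to 208 in HET and 126 to 177 in WT. The part of other cells in the differences of the 8 genes was not tested.

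RNA quality was read from control probe sets at the 3′ and 5′ ends of 2 housekeeping transcripts. The log2 difference between the 3′ and the 5′ probe set of beta-actin was 0.54 to 0.82 in KO, 0.61 to 0.82 in HET and 0.54 to 0.69 in WT, and that of Gapdh 0.59 to 0.74 in KO, 0.61 to 0.66 in HET and 0.59 to 0.72 in WT. The groups overlapped on both, and their part in the results was not tested.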

How the data were processed

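Germinal centre B cells (B220+CD95+PNA+) were sorted per mouse and their RNA amplified from 25 ng with the NuGEN Ovation system, per the labels' protocols. The authors deposited 1 log2 intensity for each probe set on each array. The submitters' processing notes name RMA (its version is not given in the sources used here), which includes quantile normalisation, so a shift of most genes would not be seen.

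Each gene was represented by its brightest probe set, by mean log2 intensity, and genes above the median non-control probe set, 10225 of 18193, were tested. A second fit used all 45037 non-control probe sets. Both were made in R 4.3.3 with lmFit and eBayes of limma 3.58.1, with terms for group and sex on all 14 arrays, Benjamini-Hochberg adjustment over all features and a threshold of 0.05. All 17 probe sets of the described genes matched RefSeq by gene identifier. The fit was also run on simulated data with independent noise for each gene. Real genes vary together across arrays, so no result given here rests on that run. The genes and lists were chosen with earlier results of these data known. Beside the 8 tested genes, the text names Crebbp, the 3 genes of each further list with the smallest p in KO against WT, and the 5 most alike in pattern. Replicate numbers are shared between groups. Of the 13 same-numbered pairs, 9 had deviations from their group means correlated above 0.1, with r from -0.17 to 0.38. Pairs with different numbers were not compared, so this check cannot decide whether the numbers pair the mice. The main fit did not use the numbers, and a fit with the number as a block is given as an alternative. The alternatives were the filter, the use of several probe sets, 2 normalisations, the sex term, females alone, array weights, the trend and robust options of limma, the groups fitted, the replicate number as a block and arrays left out.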

Additional observations from a re-analysis of the deposited data

Results flagged for a closer look

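Of 51 groups of 4 or 5 arrays checked over the 17 probe sets, 3 held an array far from the rest of its group, where chance flags about 1 in 20 groups. On the brightest Pik3cd probe set, 1453281_at, WT 4 had 11.69, against 11.08 to 11.13 in the other WT arrays. On the same probe set HET 3 had 11.01, against 11.21 to 11.22 in the other HET arrays. On the Pik3cd probe set 1443798_at, which is below the median probe set, HET 3 had 4.02, against 4.63 to 4.75 in the other HET arrays.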

How the results depend on the processing

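For KO against WT, HET against WT and KO against HET, the count of called signalling genes was 0 under each alternative run, with 1 exception. With limma's trend and robust options Cd79a was called in KO against WT (1 gene, -0.18, adjusted p = 0.0368) and in the fit on floxed alleles (1 gene, -0.09 per allele, adjusted p = 0.0279); the cause was not tested. Over the other alternatives the adjusted p of Cd79a in KO against WT ran from 0.0853 to 0.408. The count of called probe sets was 0 in each fit. With the replicate number as a block, the count stayed 0 in all comparisons and the median KO change was -0.14, and the calls of Fyn (adjusted p = 0.0503) and Hcls1 (adjusted p = 0.0581) were lost. The median KO change was -0.043 in females alone, a fit with 2 KO arrays (KO 3 and KO 4) and 3 WT arrays. It ran from -0.17 to -0.049 with 1 array left out, and the value nearest 0 was that without WT 4. The cause of these shifts was not tested. With 1 array left out the median HET change was -0.094 to -0.015, KO against HET -0.11 to -0.034, the trend -0.086 to -0.031, and the counts of the 8 genes were 0 throughout. The number of genes called in KO against WT over the whole array was 249, against 79 in females alone, 98 with only the groups compared, 75 without KO 3 and WT 4, and 130 to 259 with 1 array left out.

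Of 792 fitted values of the 8 genes under alternatives, 773 kept their sign and their side of the threshold, 17 changed sign and 2 became called. In females alone Plcg2 and Vav1 had 0.027 and 0.022 in KO against WT, Vav1 and Pik3cd 0.013 and 0.048 in HET against WT, Btk, Plcg2 and Vav1 0.0065, 0.056 and 0.00940 in KO against HET, and Plcg2 and Vav1 0.010 and 0.011 in the trend. In HET against WT, array weights gave Vav1 0.034 and Pik3cd 0.014, and leaving out KO 3 and WT 4 gave 0.00885 and 0.067. With 1 array left out the HET change was -0.026 to 0.00056 for Cd79b, -0.12 to 0.0082 for Plcg2, -0.078 to 0.033 for Vav1 and -0.14 to 0.060 for Pik3cd. None of the 17 values that changed sign had an unadjusted p under 0.05.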
